A study of Mus musculus with 6 samples.

Results

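Transcripts of 9 genes for carriers of organic anions, organic cations, carnitine and urate were followed in kidneys of iron-deficient and control mouse pups. The genes are Slc22a2, Slc22a4, Slc22a5, Slc22a6, Slc22a7, Slc22a8, Slc22a12, Slc22a13 and Slc47a1. They were taken by symbol from the 24422 genes counted, as a set of Slc22a carriers of the proximal tubule together with Slc47a1, and all 9 passed the filter on low counts that left 15145 genes for testing. The comparison is of 3 FeD kidneys with 3 control kidneys, all from wild type C57BL/6 pups labelled as postnatal day 15. Dams were 8 weeks old when their diets began. The FeD group came from dams fed a synthetic diet with about 2 to 6 ppm iron and the control group from dams fed an iron-sufficient diet with 220 ppm iron, from before mating until the pups were taken. The number of litters is not given in the sources used here, so litter and diet cannot be told apart. Whole kidneys were sequenced, so fewer proximal tubule cells and less RNA per cell cannot be told apart in any value given here.

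The proximal tubule clears drugs, toxins and metabolic waste by taking them up from blood through carriers on its basolateral face and releasing them into the lumen through other carriers on its apical face. Slc22a6 (OAT1) and Slc22a8 (OAT3) take up organic anions in exchange for dicarboxylates, and Slc22a2 (OCT2) takes up organic cations, which Slc47a1 (MATE1) then passes to the lumen in exchange for protons. Slc22a12 (URAT1) and Slc22a13 (OAT10) work in the other direction and recover urate from the lumen, while Slc22a5 (OCTN2) recovers carnitine.

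Total counts on genes were 18312543, 16189041 and 20374327 in control kidneys 1, 2 and 3 and 17833878, 13732173 and 20853293 in FeD kidneys 1, 2 and 3. Levels are given as CPM, counts scaled to library size, after TMM scaling, and 3 counts, the smallest signal taken as measurable, corresponded to 0.145 to 0.218 CPM. This floor covers counting error only. The first principal component of all tested genes (70.7% of variance) separated the groups. Control kidneys lay between -38.1 and -37.3 on it, and FeD kidneys 1, 2 and 3 at 37.0, 41.6 and 34.5. On the second component (13.6% of variance), FeD kidneys 2 and 3 stood apart from the others and from each other. There they lay at 26.5 and -30.6, and the other 4 kidneys lay between -0.0304 and 1.94. Their correlation with each other, 0.980, was the lowest between kidneys of a group. In FeD kidney 2, adrenal genes were also high. A list of 5 adrenal genes summed to 776 CPM there, against 11.8 CPM in FeD kidney 1, 12.5 CPM in FeD kidney 3 and 71.8, 10.8 and 7.82 CPM in control kidneys 1, 2 and 3. Its most abundant gene, Star, had 205 CPM in FeD kidney 2 and 6.97 to 10.6 CPM in the other kidneys, and Cyp11b1 was at 0 in control kidneys 1 and 3 and FeD kidney 1. Of the list, 3 genes were tested and 2 passed as higher, in both of which that kidney had the highest value. The sex of the pups is not labelled. Xist was at 863 and 797 CPM in control kidneys 1 and 2 and at 900 CPM in FeD kidney 3, where genes of the Y chromosome were near 0, and the other kidneys had the opposite pattern, so each group held both sexes.

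Of the 9 carriers, 7 were lower and 0 were higher in FeD kidneys at an adjusted P under 0.05 (edgeR's quasi-likelihood test, Benjamini-Hochberg adjustment), where 23.3% of all tested genes were lower and 22.4% higher. All 7 were also lower by at least 2-fold, the threshold of the study, which 5.69% of tested genes met as lower and 4.34% as higher. In 8 of the 9 genes every FeD kidney lay below every control kidney, as it did in 29.7% of tested genes. The median log2 fold change of the 9 genes was -1.08, against -0.0018 over all tested genes. Without FeD kidney 2 the number that were lower was again 7, and 6 met the 2-fold threshold. The summed level of the 9 genes was 1635, 1741 and 1636 CPM in control kidneys and 812, 776 and 795 CPM in FeD kidneys, 47.6% of control. Slc22a5 and Slc47a1 did not pass the test. In edgeR's stricter test against a fold change of 2, only Slc22a7, Slc22a8 and Slc22a12 passed, so a fall of more than 2-fold was established for these 3 and not for Slc22a2, Slc22a4, Slc22a6 and Slc22a13, whose estimates lay close to 2-fold.

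**Figure D1:**
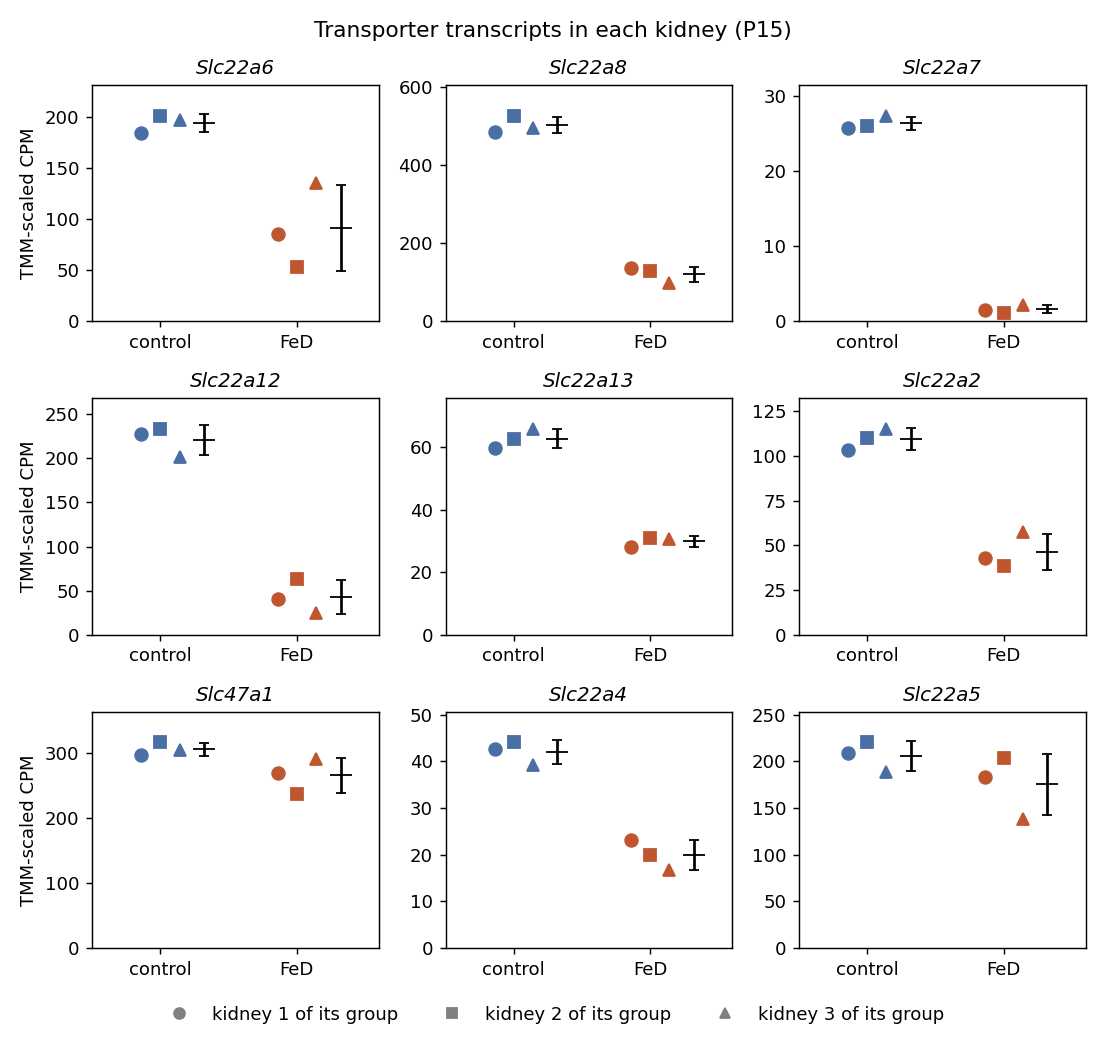
TMM-scaled CPM (linear axis from 0) of the 9 carrier genes in each of 3 control and 3 FeD kidneys, with the mean and SD of each group as black bars. In Slc22a7 the FeD kidneys sit between 1.16 and 2.18 CPM and the control kidneys between 25.8 and 27.4, while in Slc22a5 the groups overlap.

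Slc22a8 and Slc22a6, the basolateral exchangers of organic anions, both passed the test as lower in FeD kidneys. Slc22a8, on the plus strand of chromosome 19 from 8665744 to 8686324 (NCBIM37), had 486, 527 and 496 CPM in control kidneys 1 to 3 and 136, 128 and 98.0 CPM in FeD kidneys 1 to 3. The FeD kidneys lay close together and far below the controls. The mean fell from 503 ± 21.1 to 121 ± 20.0 CPM (SD, n = 3), 24.0% of control, or -2.06 on the log2 scale (SE 0.12; adjusted P = 2.5e-05 in edgeR after Benjamini-Hochberg adjustment).

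Slc22a6 begins 6161 bases beyond the end of Slc22a8 on the same strand, from 8692486 to 8702789. It had 184, 201 and 197 CPM in control kidneys and 85.8, 52.7 and 135 CPM in FeD kidneys. All FeD kidneys were below the controls, but they were spread widely, from 27.2% of the control mean in kidney 2 to 69.8% in kidney 3. The mean fell from 194 ± 9.02 to 91.3 ± 41.6 CPM (SD, n = 3), a difference of -1.08 on the log2 scale (SE 0.27; adjusted P = 0.013 in edgeR after Benjamini-Hochberg adjustment). Its coefficient of variation among FeD kidneys, 45.6%, was the highest of the 9 genes. The call depended on single kidneys: without FeD kidney 1 the log2 fold change was -1.01 and the adjusted P 0.054 (edgeR with Benjamini-Hochberg adjustment), and without FeD kidney 2 the log2 fold change was -0.79 and the gene passed the adjusted P alone.

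Because the genes are neighbours, their ratio was taken within each kidney, on the log2 scale with 0.5 CPM added. The log2 ratio of Slc22a8 to Slc22a6 was 1.40, 1.39 and 1.33 in control kidneys and 0.66, 1.27 and -0.46 in FeD kidneys. It was lower in every FeD kidney, least so in FeD kidney 2 and most in FeD kidney 3, where Slc22a6 was highest and Slc22a8 lowest. The mean difference was -0.88 (P = 0.10, two-sided exact permutation test, the smallest value that 3 kidneys against 3 can give), and -0.41 without FeD kidney 3.

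Slc22a7 (OAT2), another organic anion carrier (chromosome 17, 46569134 to 46575426, minus strand), had 25.8, 26.1 and 27.4 CPM in control kidneys and 1.57, 1.16 and 2.18 CPM in FeD kidneys. It was close to lost in every FeD kidney, at 4.40% to 8.23% of the control mean, and still above the floor. Only 15 of the 15145 tested genes had a lower log2 fold change than its -3.97 (SE 0.18). Leaving out any kidney kept the value between -4.23 and -3.78.

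The carriers that recover urate fell as well. Slc22a12 (chromosome 19, 6535845 to 6543019, minus strand) had 228, 233 and 201 CPM in control kidneys and 40.9, 63.4 and 24.9 CPM in FeD kidneys. The groups were far apart, and FeD kidney 2 was the highest of its group and kidney 3 the lowest, the reverse of Slc22a6. The mean fell from 221 ± 17.2 to 43.1 ± 19.3 CPM (SD, n = 3), 19.5% of control, or -2.37 on the log2 scale (SE 0.28; adjusted P = 0.00038 in edgeR after Benjamini-Hochberg adjustment). Exons of Nrxn2, a gene of neuronal synapses read from the other strand, overlap 29.7% of the bases in exons of Slc22a12, and because the strand setting of the counting is not given in the sources used here, some reads could belong to either. Nrxn2 itself was counted at 10.7 to 16.6 CPM in the 6 kidneys and did not pass (log2 fold change 0.06).

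Slc22a13, which also carries nicotinate (chromosome 9, 119102120 to 119118223, minus strand), had 59.5, 62.6 and 65.7 CPM in control kidneys and 27.9, 31.0 and 30.5 CPM in FeD kidneys. The FeD kidneys were nearly alike, with a coefficient of variation of 5.53%, the lowest of the 9 genes in that group. Its log2 fold change was -1.07 (SE 0.08; adjusted P = 5.6e-05 in edgeR after Benjamini-Hochberg adjustment). Of the windows of 100 bases in its transcript, 27.6% recur in the copy Slc22a13b, so reads from these could have been dropped as not unique. The copy, listed as Slc22a13b-ps, had 7 to 16 counts per kidney.

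**Figure D2:**
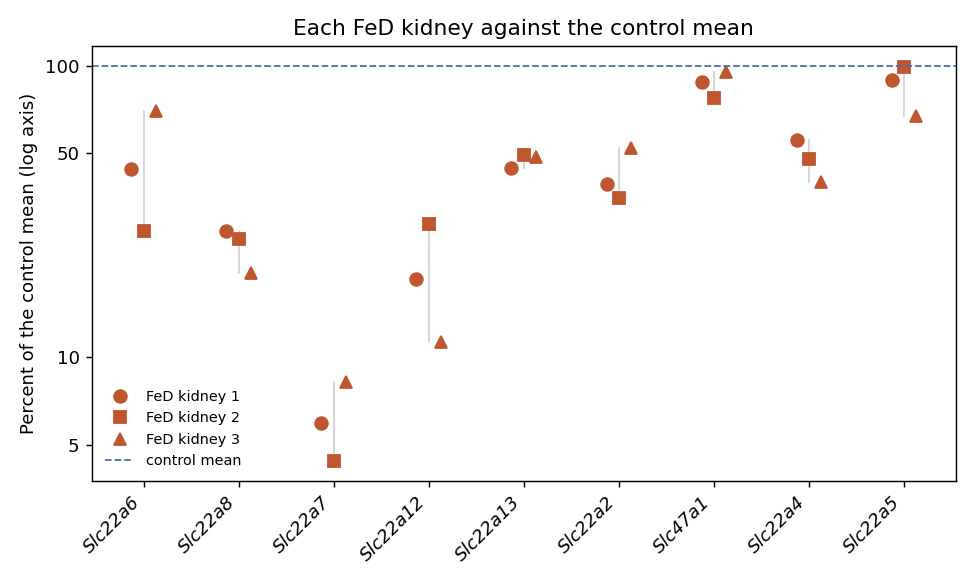
CPM of each FeD kidney as a percent of the mean of the 3 control kidneys (log axis), with a symbol for each kidney, a grey line from the lowest to the highest and the control mean as a dashed line. FeD kidney 3 is highest in Slc22a6 (69.8%) and lowest in Slc22a12 (11.3%), and FeD kidney 2 has the opposite order (27.2% and 28.7%).

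In cation secretion, the basolateral carrier Slc22a2 passed the test as lower and the apical carrier Slc47a1 did not. Slc22a2, on the plus strand of chromosome 17 from 12777055 to 12821331, had 103, 110 and 115 CPM in control kidneys and 42.9, 38.6 and 57.3 CPM in FeD kidneys. No FeD kidney reached a control kidney, and the mean was 42.3% of control, or -1.24 on the log2 scale (SE 0.13; adjusted P = 0.00028 in edgeR after Benjamini-Hochberg adjustment). Slc47a1 (chromosome 11, 61156902 to 61191847, minus strand) had 297, 317 and 305 CPM in control kidneys and 270, 238 and 291 CPM in FeD kidneys. All FeD kidneys were lower than the controls, but the nearest values were close, and the log2 fold change of -0.20 (SE 0.08) did not pass (adjusted P = 0.084, edgeR with Benjamini-Hochberg adjustment). Without FeD kidney 3 it passed, at a log2 fold change of -0.26 and an adjusted P of 0.017 (edgeR with Benjamini-Hochberg adjustment), and its adjusted P ranged from 0.017 to 0.28 over 13 alternatives. The log2 ratio of Slc47a1 to Slc22a2 within a kidney was 1.52, 1.52 and 1.41 in control and 2.64, 2.61 and 2.34 in FeD kidneys. It was higher in every FeD kidney, by 1.05 on average (P = 0.10, two-sided exact permutation test, the smallest possible).

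The 2 OCTN carriers lie near each other on the minus strand of chromosome 11, Slc22a5 from 53678044 to 53705162 and Slc22a4 from 53796625 to 53841592. Of these, Slc22a4 passed the test as lower and Slc22a5 did not. Slc22a4 (OCTN1), a carrier of ergothioneine, had 42.7, 44.0 and 39.1 CPM in control kidneys and 23.2, 20.0 and 16.8 CPM in FeD kidneys. The groups did not overlap and the log2 fold change was -1.07 (SE 0.12; adjusted P = 0.00035 in edgeR after Benjamini-Hochberg adjustment); without FeD kidney 3 it was -0.94, under the 2-fold threshold. Slc22a5 had 209, 220 and 189 CPM in control kidneys and 183, 204 and 139 CPM in FeD kidneys. Its groups overlapped, since FeD kidney 2 lay above control kidney 3. Its log2 fold change of -0.23 (SE 0.13) did not pass (adjusted P = 0.18, edgeR with Benjamini-Hochberg adjustment), which does not show that its level was equal. Leaving out a kidney gave log2 fold changes from -0.33 to -0.08, the latter without FeD kidney 3. Slc22a5 passed in 0 of 13 alternatives. Of its transcript windows, 12.9% recur in Slc22a21, a relative at 5.38 to 10.8 CPM. The log2 ratio of Slc22a5 to Slc22a4 was 2.28, 2.31 and 2.26 in control and 2.95, 3.32 and 3.01 in FeD kidneys, a rise of 0.81 with no overlap (P = 0.10, two-sided exact permutation test, the smallest possible).

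Per kilobase of exon, the order of the carriers changed with the diet. In control kidneys Slc22a8 had the highest level, 145 ± 6.07 CPM per kilobase (SD, n = 3), followed by Slc22a12 at 98.1 ± 7.66, Slc47a1 at 90.6 ± 2.92, Slc22a5 at 67.1 ± 5.16, Slc22a2 at 50.9 ± 2.75 and Slc22a6 at 48.1 ± 2.24. Slc22a13, Slc22a4 and Slc22a7 were lowest, at 31.6, 16.4 and 13.0. Slc22a12 and Slc47a1, and Slc22a2 and Slc22a6, did not differ beyond their SDs. In FeD kidneys Slc47a1 led at 78.8 ± 7.94 CPM per kilobase, ahead of Slc22a5 at 57.1 ± 10.8 and Slc22a8 at 34.7 ± 5.75. Slc22a6, Slc22a2 and Slc22a12 followed at 22.7 ± 10.3, 21.5 ± 4.56 and 19.1 ± 8.59 and did not differ beyond their SDs, nor did Slc22a8 and Slc22a6, and in FeD kidney 3 Slc22a6 was above Slc22a8 (33.6 against 28.2). Slc22a13, Slc22a4 and Slc22a7 were again lowest, at 15.1, 7.83 and 0.806, and Slc22a13 lay within the SDs of Slc22a6 and Slc22a12.

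The sexes were unevenly spread, with 2 female and 1 male control kidneys and 1 female and 2 male FeD kidneys, so values within each sex were taken after the counts had been seen, with no test. The direction was the same in both sexes for the 7 genes that passed. Slc22a6 in FeD kidneys was 70.4% of control in females and 35.1% in males. Slc22a12 was 10.8% of control in females and 25.9% in males, and Slc22a5 was 64.7% in females and 102% in males. With 1 FeD kidney in the female comparison, sex and the individual kidney cannot be told apart. With sex as a term in the edgeR fit the number of lower genes was again 7, and 6 met the 2-fold threshold, with Slc22a6 just short of it.

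Each carrier was next set against general markers of the proximal tubule in the same kidney. Of 12 such markers, including Lrp2 (megalin) and Miox, 8 were lower and 2 were higher in FeD kidneys at an adjusted P under 0.05 (edgeR, Benjamini-Hochberg). Their summed level was 6790, 7265 and 6898 CPM in control kidneys and 4588, 4578 and 4809 CPM in FeD kidneys, 66.7% of control, and no marker of the list was at 0. Miox alone fell from 1399, 1500 and 1420 CPM to 152, 163 and 96.3 CPM, a log2 fold change of -3.39, and without it the sum was 81.5% of control. The mean log2 level of these markers itself changed by -0.58 in FeD kidneys. The share of all tested genes that separate without overlap relative to this mean was not taken, so the counts have no background share. Relative to this mean, 6 carriers were lower in every FeD kidney than in any control kidney, namely Slc22a2, Slc22a4, Slc22a7, Slc22a8, Slc22a12 and Slc22a13. The differences ranged from -0.48 for Slc22a13 to -3.11 for Slc22a7, with -1.87 for Slc22a12 and -1.49 for Slc22a8. For Slc22a7 the value depended on the CPM added before taking logs, and was -2.40 with 2 CPM in place of 0.5. Slc22a6 overlapped, since FeD kidney 3 lay above the controls at -1.07. Slc47a1 was higher in every FeD kidney, by 0.37, and Slc22a5 overlapped. Without FeD kidney 3, Slc22a6 joined the lower genes and Slc22a5 the higher ones, which made 7 and 2. The comparison also depended on Miox. With Miox left out of the mean, an alternative chosen after the data had been seen, 7 carriers were lower without overlap, Slc22a6 now among them at -0.87, and 0 were higher. Slc47a1 then overlapped, at -0.32, -0.33 and -0.34 in control and -0.21, -0.34 and -0.11 in FeD kidneys, so its rise relative to the markers rested on Miox.

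**Figure D3:**
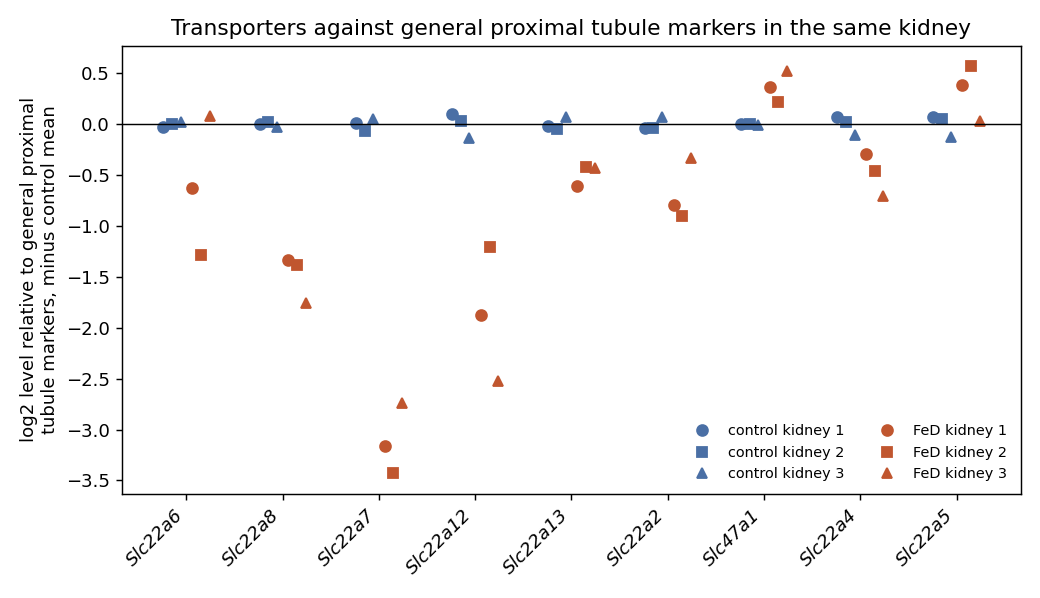
Log2(CPM + 0.5) of each carrier minus the mean of 12 general proximal tubule markers in the same kidney, with the control mean of each carrier set to 0, for 3 control (blue) and 3 FeD (orange) kidneys. FeD kidneys lie below all controls in 6 carriers and above them in Slc47a1. With Miox left out of the markers, Slc47a1 overlaps and Slc22a6 lies below. The share of all tested genes relative to these markers was not taken.

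This picture depended on the segment whose markers were used. Markers of the early segments (S1 and S2) fell further, to 29.0% of control in their summed level, from 5556, 6001 and 6021 CPM to 1899, 1689 and 1507 CPM, with 5 of 7 lower and 1 higher and Slc34a1 the most abundant. The mean log2 level of these markers changed by -1.86 in FeD kidneys, so a carrier that fell less can count as higher. The share of all tested genes relative to this mean was not taken. Relative to it, 5 carriers were higher, of which Slc22a2, Slc22a4 and Slc22a13 had passed the test as lower in level. Slc22a7 and Slc22a8 were lower in FeD kidneys without overlap, and Slc22a6 and Slc22a12 overlapped. These counts too depended on single markers. Slc5a2 and Slc34a3 had log2 fold changes of -4.89 and -4.68 and the other 5 markers ran from -2.22 to 0.60. With these 2 left out, an alternative chosen after the data had been seen, Slc22a4, Slc22a7, Slc22a8 and Slc22a12 were lower without overlap, Slc22a5 and Slc47a1 were higher, and Slc22a2, Slc22a6 and Slc22a13 overlapped. Markers of the late segment (S3) summed to 5388, 5751 and 5617 CPM in control and 4825, 4967 and 5384 CPM in FeD kidneys, 90.6% of control, with 4 of 8 lower and 1 higher and Napsa the most abundant. Their mean log2 level changed by -0.35 in FeD kidneys, and the share of all tested genes relative to it was not taken either. Relative to these markers, all 7 carriers that had passed the test were lower in FeD kidneys without overlap, and Slc22a5 and Slc47a1 overlapped. The part of a change in segments in the fall of the carriers was not tested.

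Markers of other nephron segments and cell types moved in their own ways. Summed podocyte markers were at 97.9% of control (0 of 5 lower, 1 higher), thick ascending limb markers at 93.0% (1 of 5 lower, 0 higher) and myeloid markers at 93.7% (1 of 5 lower, 2 higher). Endothelial markers were at 75.9% (4 of 5 lower, 0 higher) and stromal markers at 77.4% (2 of 5 lower, 3 higher). Distal convoluted tubule markers summed to 1781, 1876 and 2429 CPM in control and 952, 963 and 774 CPM in FeD kidneys, 44.2% of control, with 3 of 4 lower and Slc12a3 the most abundant. Collecting duct markers summed to 1256, 1308 and 1762 CPM in control and 2641, 1802 and 3017 CPM in FeD kidneys, 172% of control, with 4 of 8 higher and 2 lower and Aqp2 the most abundant. A list of progenitor and cell division genes summed to 89.1, 99.7 and 82.7 CPM in control and 28.4, 26.8 and 23.6 CPM in FeD kidneys, 29.0% of control, but most of this sum came from the division genes Mki67 and Top2a, which were lower. Of the progenitor genes, Eya1 was higher, Cited1 did not pass and Six2 was too low to test, at 0.161 to 0.582 CPM in the 6 kidneys. Of the 6 blood markers, the 4 globin genes are listed at 0 in every kidney, and of the other 2, Slc4a1 was lower and Alas2 did not pass, with a summed level of 38.3% of control. Slc4a1 makes up most of that sum and is also on the collecting duct list, so it does not speak for blood alone. Of the 7 liver markers, 3 were higher and 1 lower and the sum was 169% of control, led by Ttr, and albumin (Alb) was at 0.145 to 1.82 CPM in the 6 kidneys. The part of these markers in the results was not tested.

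Of 69 genes on the lists of related carriers, their driving forces, their regulators and their substrates' enzymes, 62 were tested, and 18 were lower and 19 higher at an adjusted P under 0.05 by edgeR with Benjamini-Hochberg adjustment, with a median log2 fold change of -0.19. Over all tested genes the shares were 23.3% and 22.4%. Among 14 tested Slc22 relatives, 5 were lower and 4 higher. Of the higher ones, Slc22a21 passed in 8 and Slc22a30 in 7 of 13 alternatives, and neither passed with sex in the fit. Slc22a18, an imprinted carrier, fell from 252, 268 and 259 CPM to 92.4, 91.3 and 64.2 CPM, with a log2 fold change of -1.65, while Slc22a19 (OAT5) rose from 41.9, 42.4 and 49.0 CPM to 82.9, 73.1 and 107 CPM.

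Among 17 tested efflux carriers, OATPs and other urate carriers, 7 were higher and 4 lower, of which Slc2a12 did not pass without control kidney 2. Over all tested genes, 22.4% were higher and 23.3% lower. Slc2a9 (GLUT9), which passes recovered urate to blood, had 23.6, 24.1 and 26.0 CPM in control kidneys and 69.1, 68.8 and 39.3 CPM in FeD kidneys, all above the controls, and its log2 fold change of 1.26 was opposite in sign to that of Slc22a12. The luminal carriers Slc17a1 and Slc17a3 moved in opposite directions, with log2 fold changes of 0.87 and -1.09. Abcg2, which exports urate, rose from 177, 193 and 175 CPM to 236, 225 and 216 CPM, a log2 fold change of 0.31, and the urate-forming enzyme Xdh rose by 1.08 on the log2 scale. The OATP genes Slco1a6 and Slco2b1 rose by 1.82 and 1.56. Abcc2 and Abcc4, which export organic anions to the lumen, did not pass (log2 fold changes -0.28 and 0.08), though Abcc2 did as lower without FeD kidney 1. Abcb1a passed with overlapping groups and lost its call without any 1 of 5 kidneys.

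For the counts that follow, the shares over all tested genes were 23.3% lower and 22.4% higher. Among 7 genes for the driving forces of these carriers, 1 was lower and 1 higher. The lower one was Slc13a3, the basolateral dicarboxylate carrier that supplies the anion exchangers Slc22a6 and Slc22a8, at 22.8% of control, and the higher one was Slc5a8. Of 12 regulators and scaffolds, 6 were lower and 3 higher. Several of these calls were unsteady over 13 alternatives: among the higher ones Hnf4g passed in 8 and Ahr in 7, and among the lower ones Bcl6 passed in 8 and Nr1i2 in 11. Hnf4a had 433, 468 and 449 CPM in control and 445, 404 and 297 CPM in FeD kidneys, overlapped and did not pass. Pdzk1, a scaffold that binds Slc22a12 and other apical carriers, fell to 42.3% of control, with a log2 fold change of -1.24, and the scaffolds Slc9a3r1 and Slc9a3r2 fell by 0.50 and 0.43. Of 4 tested genes of purine breakdown, Xdh and Gda were higher and Ada lower, but Gda passed in 12 and Ada in 8 of 13 alternatives. Of 8 carnitine genes, Cpt1a and Crot were higher and Crat lower, beside the carnitine carrier Slc22a5, which did not pass.

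By profile, the tested genes nearest to a carrier were those with the smallest root mean square distance over the 6 kidneys, taken on log2 levels after subtracting each gene's control mean, among 12346 genes with at least 5 CPM in either group. For Slc22a4 the nearest gene was its relative Slc22a23 (distance 0.09 on the log2 scale), with 126 and 63.0 CPM in control and FeD kidneys. For Slc22a8 it was Aadac (0.10), for Slc22a13 Hgd (0.05), an enzyme of tyrosine breakdown, and for Slc22a12 Cela1 (0.14). For Slc22a6 it was P2rx1 (0.14), for Slc22a2 Tmie (0.06), for Slc22a5 Fxyd1 (0.05) and for Slc47a1 Tspan33 (0.02). None is given for Slc22a7, whose nearest gene was close to the floor in FeD kidneys.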

How the data were processed

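RNA-seq counts of 3 control and 3 FeD kidneys were analysed. Upstream, the authors prepared poly(A) RNA from whole kidneys, sequenced it as single-end reads, trimmed them with Trimmomatic, aligned them with TopHat2 2.0.11 to mm9, kept uniquely mapped reads and deposited raw counts per gene from HTSeq, without normalization or pooling. The annotation and strand setting are not given in the sources used here.

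Counts of 24422 genes were filtered with filterByExpr, scaled by TMM and tested with edgeR 4.0.16 in R 4.3.3 (glmQLFit, glmQLFTest, Benjamini-Hochberg over 15145 genes). Total counts ranged from 13732173 to 20853293. The fit was tested on simulated counts and called 200 of 200 changed genes (15060 genes tested). Gene positions and lengths of exons were read from an annotation of build NCBIM37. Named genes were the 9 carriers, the pathway and marker lists, and the 3 genes nearest in profile to each carrier. The members and lists were chosen with earlier results of these data known. Alternatives were other scalings and filters, DESeq2 1.42.0, a replicate block, sex, a test against a fold change of 2, other marker lists and each kidney left out.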

Additional observations from a re-analysis of the deposited data

How the results depend on the processing

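With other scalings, filters, the DESeq2 Wald test, a block and sex, the number of carriers lower at an adjusted P under 0.05 was 7 each time and 0 were higher; leaving out each kidney gave 6 to 8. At 2-fold it was 7, but 6 with sex in the fit (Slc22a6), 6 without any 1 of the FeD kidneys (Slc22a6 or Slc22a4) and 3 in the test against a fold change of 2, which called 286 genes lower and 225 higher. Calls changed for Slc22a6, which did not pass without FeD kidney 1, and for Slc47a1, which passed without FeD kidney 3. Over all genes, leaving out a kidney gave 2618 to 3817 lower and 2401 to 3937 higher, at 2-fold 813 to 944 and 595 to 804, and for the pathway genes 15 to 22 and 14 to 19.

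For the counts relative to marker means that follow, the share of all tested genes was not taken, so they have no background share. Relative to general proximal tubule markers, 6 carriers were below and 1 above without overlap. Leaving out a kidney gave 6 to 7 and 1 to 2. With early markers 2 were below and 5 above, and with late markers 7 and 0; the cause was not tested. Early markers without Slc5a2 and Slc34a3 gave 4 and 2. Without Miox, a marker that fell far more than the others, 7 were below and 0 above. For Slc22a7 a pseudocount of 2 CPM gave -2.40 in place of -3.11. Leaving out markers and the values within each sex were chosen after the data had been seen.

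With the replicate number as a block, 7 carriers were lower, all 7 at 2-fold, with 3344 genes lower and 3100 higher (879 and 655 at 2-fold) and 19 and 18 pathway genes. Correlations of deviations from the group mean were -0.18, -0.0020 and -0.043 for kidneys of the same number. For kidneys of unlike number they ran from -0.10 to 0.19. With 3 kidneys per group, these values cannot show whether kidneys of the same number share a litter or batch. Over 13 alternatives, 115 fold changes of carriers were labelled the same, 1 stronger and 1 weaker, and 746, 18 and 41 of pathway genes; none turned in sign after passing. Median log2 fold changes of all genes stayed between -0.0104 and 0.0130. Leaving out globin and mitochondrial genes removed only genes listed at 0, so it could change nothing and is not counted among the 13. Among the carriers, depth limits Slc22a7 in FeD kidneys most, though its 28, 16 and 45 counts there lay above the floor of 3 counts. Counts near the floor give no reliable fold change.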
